A study of Drosophila melanogaster with 4 samples.

Results

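Very broad LSD1 domains are the enriched regions of at least 20 kb on the chromosome arms 2L, 2R, 3L, 3R and X in a ChIP-seq study of adult fly heads. They were selected on their deposited width alone, from the combined list of the replicate set, and 287 of its 11016 enriched regions met the rule. The same list held 10854 regions on these 5 arms, so the domains were 2.64% of the regions there. A further 2 regions of 20 kb or more lay outside the 5 arms and were left out. The width rule fixes how many domains there are, how wide they are and how much of the genome they cover, so these values are descriptions and carry no test.

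The LSD1 ChIP group had 2 samples and the input group had 2 samples, all from heads of mixed adult Drosophila melanogaster of the wild-type laboratory strain Oregon-R. The flies were kept in population cages and the heads were collected with sieves, so each sample pools many animals and all cell types of the head. The antibody is named Q3430 in the labels. Every sample shared strain, genotype and stage, and no other genotype or treatment was included. The labels number the replicates 1 and 2 but do not state if the heads came from separate collections, and the spread of 2 such samples can be purely technical. Averages of the replicates carry their SD (n = 2), and no test was run, since 2 replicates cannot give a small exact p and the combined list stems from the same libraries.

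LSD1 removes methyl groups from lysine 4 of histone H3, a mark of active promoters and enhancers. In flies it is encoded by Su(var)3-3 and works in complexes with the corepressor CoREST and histone deacetylases. Su(var)3-3 is known from genetics as a suppressor of position-effect variegation, the patchy silencing of genes placed beside heterochromatin. No expression or chromatin mark was measured here, so the domains are described by their position, width, score and composition.

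The domains covered 9.06 Mb, which was 7.615% of the 119.03 Mb of the 5 arms and 20.6% of all enriched length there. Their widths ran from 20.117 kb to 129.8 kb, with quartiles of 22.6, 27.3 and 34.8 kb and a mean of 31.6 kb. Widths of 20 to 25 kb were found for 116 domains, 25 to 30 kb for 63, 30 to 40 kb for 57, 40 to 50 kb for 27 and 50 kb or more for 24. Just inside the limit were 2L:16518170-16538286 with 20117 bp, 3L:10635004-10655126 with 20123 bp and X:1307984-1328196 with 20213 bp. Just outside it were X:11541778-11561762 with 19985 bp, X:17613082-17633028 with 19947 bp and X:11261336-11281278 with 19943 bp. The limit thus falls where widths follow each other closely. Positions here and below are release 5 coordinates, per the file headers.

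**Figure D1:**
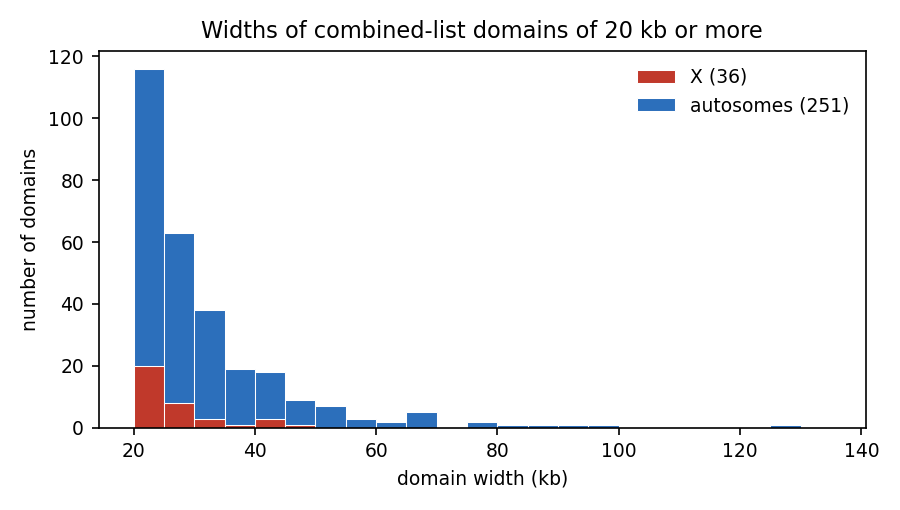
Number of domains (vertical axis) by width in kb (horizontal axis, bins of 5 kb), with the 36 domains of X and the 251 domains of the autosomal arms stacked in 1 bar. The first bin holds 116 domains, and no domain of X reaches 50 kb.

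Each region carries a score from the authors, read as the log2 enrichment of ChIP over input. The domains had a median combined score of 0.92, with a range of 0.52 to 2.01. The median was 0.81 for regions of 10 to 20 kb, 0.49 for regions under 10 kb and 0.50 for all regions of the 5 arms. All 287 domains stood above that last median, and 279 of them (97.2%) were among the 25% of all regions with the highest scores. By width, the median score was 1.03 for the 24 domains of 50 kb or more and between 0.89 and 0.93 for the narrower groups given above. The rank correlation (Spearman's rho) of width and score was 0.053 over 287 domains, which share their libraries, and it is given as a description.

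Domains were found on all 5 arms at unequal density. Arm 2L held 57 domains (2.48 per Mb), 2R held 46 (2.18 per Mb), 3L held 65 (2.65 per Mb), 3R held 83 (2.97 per Mb) and X held 36 (1.61 per Mb). Domains made up 9.37% of the length of 3R and 9.16% of 3L, but 4.33% of X. The density on X was 0.618 times that of the autosomal arms together, which had 2.60 per Mb. The domains of X were narrower, with a median width of 23.9 kb against 27.7 kb on the autosomes. Their combined scores were higher, with a median of 1.20 on X against 0.89 on the autosomes. This difference was mostly in replicate 1, where the medians of the length-weighted scores were 1.32 on X and 0.91 on the autosomes, while in replicate 2 they were 1.14 on X and 1.06 on the autosomes.

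The replicate lists differed on X. Regions of 20 kb or more numbered 36 on X in replicate 1 and 4 in replicate 2, against 139 and 74 on the autosomes in the same lists. Per Mb, the ratio of X to autosomes was 1.12 in replicate 1 and 0.233 in replicate 2. The lists also differed over the whole of X, where regions of any width covered 27.8% in replicate 1 and 20.4% in replicate 2, against 26.8% and 29.6% of the autosomes. The part of this list-wide difference in the domain counts was not tested.

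The spacing of the domains was uneven. Between neighbours on the same arm there were 282 gaps, measured edge to edge, with a median of 224.5 kb, quartiles of 66.6 and 542 kb and a mean of 359.9 kb. The gaps ran from 3 bp to 2073 kb. Gaps under 10 kb numbered 29 (10.3%), gaps under 50 kb numbered 63 (22.3%) and gaps under 100 kb numbered 91 (32.3%). At the other end, 79 gaps exceeded 500 kb and 20 exceeded 1 Mb. The median gap was 540 kb on X, against 190 kb on the autosomes, where it ranged between 137 kb on 3L and 260 kb on 2R.

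**Figure D2:**
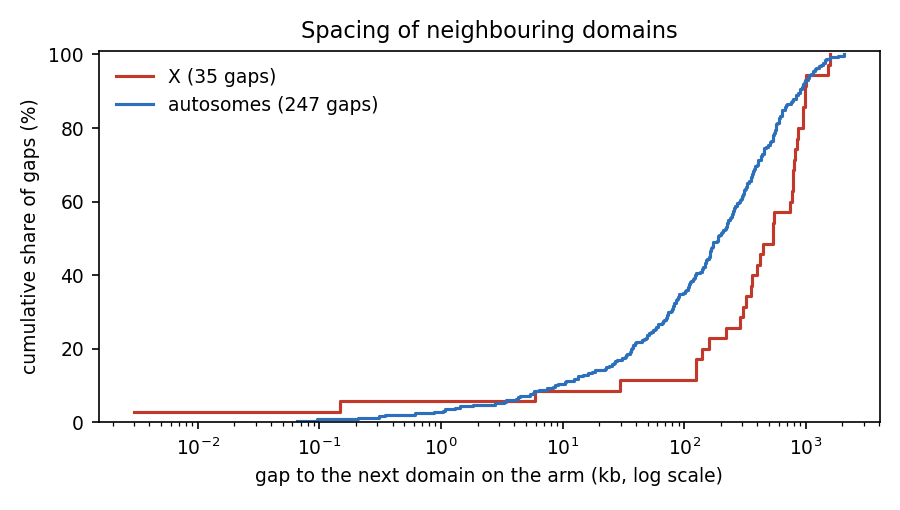
Cumulative share of gaps in % (vertical axis) by the gap to the next domain in kb on a log scale (horizontal axis), for 35 gaps on X and 247 gaps on the autosomes. The autosomal curve reaches 50% at 190 kb and the X curve at 540 kb.

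Some neighbours were close enough to be nearly 1 domain in the list. The pair X:19259436-19304304 and X:19304308-19325330 was separated by 3 bp. The pair 3R:8378506-8403500 and 3R:8403566-8426236 was separated by 65 bp. The pair 2R:1689126-1718220 and 2R:1718316-1741620 was separated by 95 bp, and a single replicate 2 region of 37292 bp crossed that boundary. The longest stretches with no domain between neighbours lay on 2L after 2L:9732478-9759776 (2073 kb, up to 2L:11833226-11859474), on 2R after 2R:15467006-15507556 (1828 kb, up to 2R:17335460-17369706) and on X after X:14839284-14867986 (1593.1 kb, up to X:16461086-16482776).

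Linking domains less than 50 kb apart gave 53 chains of at least 2 domains, which held 116 of the 287, while 171 domains stood alone. The chain with the most domains was 3L:11225298-11451704, with 4 domains over 226 kb. The longest chain was 3R:5680112-5927056, with 3 domains over 247 kb, of which 71.8% was domain. It starts with the widest domain of all and ends with the fourth highest in score. The chain 3L:10217368-10409098 was the most solid of those with 3 domains, with 95.4% of its 192 kb inside domains. It holds 2 of the 10 widest domains. At a limit of 10 kb the chains numbered 27, with 56 domains.

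Both of these 3L chains lie in neighbouring megabases that held the most domains. Of 117 whole 1 Mb bins, 10 had no domain and the median bin had 2. The bin from 10 to 11 Mb of 3L had 9 domains, which filled 32.3% of it, and the next bin of 3L had 7, which filled 25.5%. The bin from 10 to 11 Mb of 3R also had 7 domains. Along the arms, the 5 equal parts counted from the telomere held 64, 54, 62, 66 and 41 domains. These were 2.88%, 2.39%, 2.63%, 3.03% and 2.22% of the enriched regions in each part, against 2.64% for the 5 arms as a whole, and no steady trend along the arms was seen. Within 10 kb of the domains, with neighbouring domains left out, 42.6% of the sequence was enriched, against 31.8% of all sequence of the 5 arms outside domains.

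How the replicate lists fill and split a domain is not used by the width rule, but the combined list was made from the same libraries, so the following is no independent check. Filling here is the share of a domain's length covered by the regions of a replicate list. Replicate 1 filled the domains to 92.7% on average, with a median of 95.4% and a range of 37.4% to 100%. Replicate 2 filled them to 87.7% on average, with a median of 90.5% and a range of 39.7% to 99.98%. The mean over both was 90.2 ± 3.56% (SD, n = 2), against 83.9 ± 2.41% for regions of 10 to 20 kb and 46.2 ± 1.81% for regions under 10 kb (SD, n = 2 each).

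Nearly every domain was present in both lists. Each replicate filled all but 1 of the 287 domains to at least 50% (99.7%), and both did so in 285. Of all combined regions of the 5 arms, replicate 1 filled 54.2% to that extent, replicate 2 filled 57.2% and both filled 35.1%. In this the domains resembled the next narrower regions, since of those of 10 to 20 kb replicate 1 filled 96.0% to at least 50%, replicate 2 filled 96.4% and both filled 92.4%. Filling of at least 90% by both lists was reached by 109 domains (38.0%), against 19.9% of regions of 10 to 20 kb and 6.05% of all regions. By length, 82.9% of domain sequence was enriched in both lists, 10.4% in replicate 1 alone, 5.33% in replicate 2 alone and 1.39% (126 kb) in neither. For regions of 10 to 20 kb, 71.9% was enriched in both lists and 3.26% in neither. For all regions of the 5 arms these shares were 52.1% and 12.7%. The filled shares of the lists did not go together: their rank correlation was 0.0094 over 287 domains, given as a description.

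**Figure D3:**
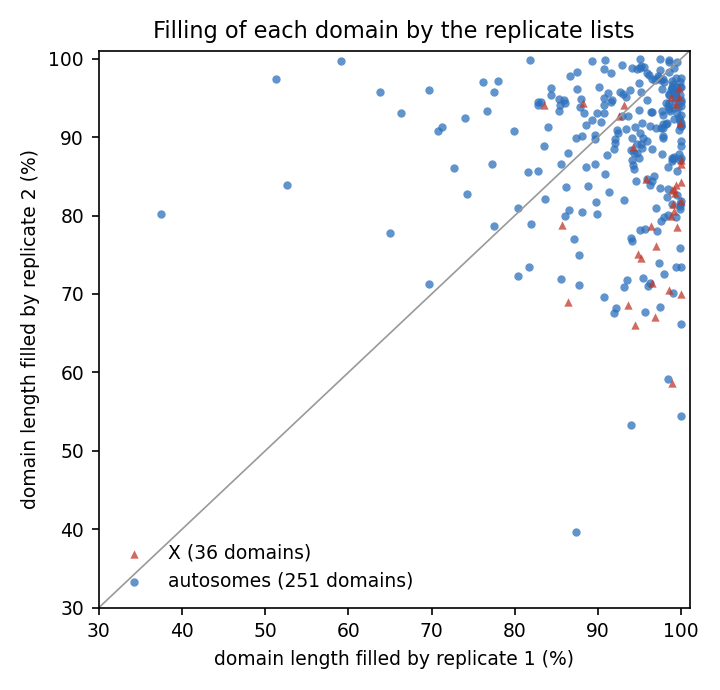
Share of each domain filled by replicate 2 in % (vertical axis) against the share filled by replicate 1 in % (horizontal axis), 1 point per domain, with 36 domains of X as triangles, 251 autosomal domains as circles and the line of equal filling. Most points lie in the upper right corner, and 32 of the 36 X domains lie below the line.

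The least filled domains in replicate 1 were 3L:12158582-12181052 with 37.4% filled, 3R:10031958-10055390 with 51.3% and 2L:13135388-13157308 with 52.6%. Replicate 2 filled the same domains to 80.2%, 97.4% and 83.8%. In replicate 2 the least filled were 3R:13636132-13673238 with 39.7%, 2L:1658448-1679918 with 53.4% and 3L:10843306-10864418 with 54.5%. Replicate 1 filled these to 87.4%, 93.9% and 100%, the last of them inside 1 region of 62030 bp. Each of the 6 domains was thus filled to at least 80% by the other list. The first 2 of the replicate 2 group also had the lowest combined scores of all domains, 0.52 and 0.53, followed by 3R:10366110-10387282 with 0.58, which was filled to 81.7% by replicate 1 and 73.5% by replicate 2.

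The lists also differed in how they divided the domains. The mean number of replicate regions per domain was 2.54 in replicate 1 and 3.87 in replicate 2, or 3.202 ± 0.941 (SD, n = 2). Replicate 1 gave 107 domains as 1 region and replicate 2 gave 27. Division into 2 or more regions was found in 180 domains (62.7%) in replicate 1, against 10.4% of all combined regions, and in 260 domains (90.6%) in replicate 2, against 14.9%. Regions of 10 to 20 kb were divided in 353 of 632 cases in replicate 1 and 474 of 632 in replicate 2, so division was common in these too. Replicate 2 had more regions than replicate 1 in 188 domains (65.5%), fewer in 45 (15.7%) and the same number in 54 (18.8%). For regions of 10 to 20 kb these shares were 44.5%, 19.5% and 36.1%. Of all 10854 combined regions of the 5 arms, 3187 had more regions in replicate 2. The replicate 2 list was also the longer one on these arms, with 9798 regions against 7958.

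A domain was called whole in a list when 1 region filled at least 90% of it. Replicate 1 had 105 whole domains (36.6%), against 23.9% of all combined regions, and replicate 2 had 25 (8.71%), against 21.2%. Of 632 regions of 10 to 20 kb, 33.1% were whole in replicate 1 and 15.98% in replicate 2. In both lists 17 domains (5.92%) were whole, 88 (30.7%) in replicate 1 alone, 8 (2.79%) in replicate 2 alone and 174 (60.6%) in neither. Over all combined regions of the 5 arms these shares were 4.08%, 19.8%, 17.2% and 58.9%. Over regions of 10 to 20 kb they were 9.18%, 23.9%, 6.80% and 60.1%. The replicate region with the longest stretch inside the domain had a full length of 20 kb or more in 160 domains in replicate 1 and in 74 in replicate 2. Such a region could reach beyond the domain. The longest replicate region filled a median of 75.6% of the domain in replicate 1 and 47.7% in replicate 2. The word domain therefore describes the combined list, and in replicate 2 most domains held no single region of that width.

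**Figure D4:**
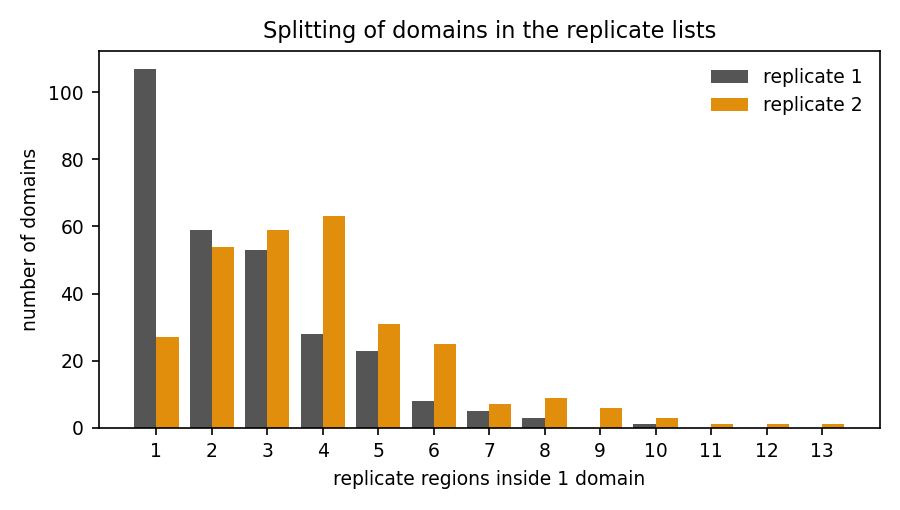
Number of domains (vertical axis) by the number of replicate regions inside the domain (horizontal axis), for replicate 1 and replicate 2. Replicate 1 peaks at 1 region with 107 domains, while replicate 2 has 27 domains there and reaches 13 regions in 1 domain.

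The breaks inside domains were short. Replicate 1 had 438 inner gaps with a median of 530 bp, and 73.3% of them were under 1 kb. Replicate 2 had 817 inner gaps with a median of 484 bp, and 71.4% were under 1 kb. Inner gaps of 5 kb or more numbered 4 in replicate 1 and 5 in replicate 2. Most of these breaks were enriched in the other list. Replicate 2 filled at least 50% of 376 (85.8%) of the replicate 1 gaps, and replicate 1 filled at least 50% of 756 (92.5%) of the replicate 2 gaps. Of all domain length, replicate 2 filled 88.2% and replicate 1 filled 93.3%. The latter are shares of length that include the breaks, so they cannot be set directly against the shares of gaps. When replicate regions less than 1 kb apart were joined, the mean number per domain came to 1.61, and at 5 kb it came to 1.02.

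Domain edges lay close to edges of the replicate regions. Of 574 domain edges, 425 (74.0%) were within 1 kb of the outermost replicate 1 edge and 398 (69.3%) within 1 kb of the outermost replicate 2 edge, with median distances of 301 and 449 bp. Distances over 5 kb were found at 21 edges in replicate 1 and 6 in replicate 2. All 78 regions of 20 kb or more in replicate 2 touched a domain, as did 163 of 175 in replicate 1. The other 12 regions of replicate 1 were 20.1 to 25.6 kb wide, and 7 of them were on X. The combined list covered them to between 91.2% and 99.9% with 1 to 3 narrower regions.

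Score and division went together among the domains. In the 25% of domains with the highest combined scores (71 domains), replicate 1 had 57 whole domains and a median filling of 98.9%, and replicate 2 had 13 whole domains and a median of 94.3%. In the 25% with the lowest scores (71 domains), replicate 1 had 4 whole domains with a median filling of 87.7%, and replicate 2 had 1 with a median of 86.0%. Over all 287 domains, the rank correlation of combined score with the number of regions was -0.679 in replicate 1 and -0.419 in replicate 2. The combined score is made from the same libraries as both lists, so these relations are descriptions.

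Wider domains held more replicate regions on average, but such a count can rise with length alone, and no count per kb was computed. Domains of 20 to 25 kb held 2.21 regions of replicate 1 and 3.08 of replicate 2 on average, while the 24 domains of 50 kb or more held 3.25 and 6.46. The median was 2 in both width groups in replicate 1, and 3 and 6 in replicate 2. Of those 24, replicate 1 had 10 whole and replicate 2 had none. Their filling was nonetheless high, with medians of 98.3% in replicate 1 and 94.2% in replicate 2.

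The domains of X differed from those of the autosomes in opposite ways in the lists. Replicate 1 filled X domains to 96.4% and autosomal domains to 92.2%, and replicate 2 filled X domains to 81.6% and autosomal domains to 88.6%. Over both lists the mean was 89.0 ± 10.5% on X and 90.4 ± 2.57% on the autosomes (SD, n = 2 each). These means average over differences of opposite direction, so they do not give a chromosome difference common to both lists. Whole domains made up 21 of 36 (58.3%) on X and 84 of 251 (33.5%) on the autosomes in replicate 1, and 2 of 36 (5.56%) on X and 23 of 251 (9.16%) on the autosomes in replicate 2. Replicate 1 filled more of the domain than replicate 2 in 32 of 36 X domains (88.9%) and in 163 of 251 autosomal domains (64.9%).

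The widest domain was 3R:5680112-5809930, with 129.8 kb and a combined score of 1.20. Replicate 1 held it in 3 regions that filled 99.3% and replicate 2 in 8 that filled 97.6%. The rightmost region had the highest score in both lists, 1.39 in replicate 1 and 1.57 in replicate 2. The other regions of at least 10 kb scored 1.02 and 0.76 in replicate 1 and 1.18, 0.91 and 1.31 in replicate 2, from left to right.

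The second, 3L:19135566-19231088, was 95.5 kb wide with a combined score of 0.83. It was split into 8 regions in each list, filled to 93.9% by replicate 1 and 88.3% by replicate 2. The third, 3L:734540-825308, was 90.8 kb wide and scored 1.496. A single region of replicate 1 filled 95.1% of it, and 2 regions of replicate 2 filled 99.1%. The most divided domain was 2L:13036068-13121900, 85.8 kb wide with a score of 0.92, which had 10 regions in replicate 1 (89.8% filled) and 13 in replicate 2 (93.0% filled). Divided domains could still hold long regions, and the longest in this one was 45567 bp in replicate 1 and 19817 bp in replicate 2.

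The remaining domains among the 10 widest were between 67.3 and 83.4 kb. Replicate 1 held 3 of them in a single region: 3L:21832514-21910312 (99.4% filled), 2R:14171362-14246904 (100%) and 3L:10217368-10286546 (98.8%). Replicate 2 divided those same domains into 5, 7 and 4 regions that filled 95.7%, 96.4% and 97.1%. The domains 3L:10294834-10378188 and 3L:3721242-3788538 had 2 regions each in replicate 1, and 9 and 10 regions in replicate 2. The domain 3L:5203712-5272438 had 5 regions in replicate 1 and 11 in replicate 2, with 98.4% and 83.4% filled. Of the 10 widest domains, 7 lay on 3L.

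**Figure D5:**
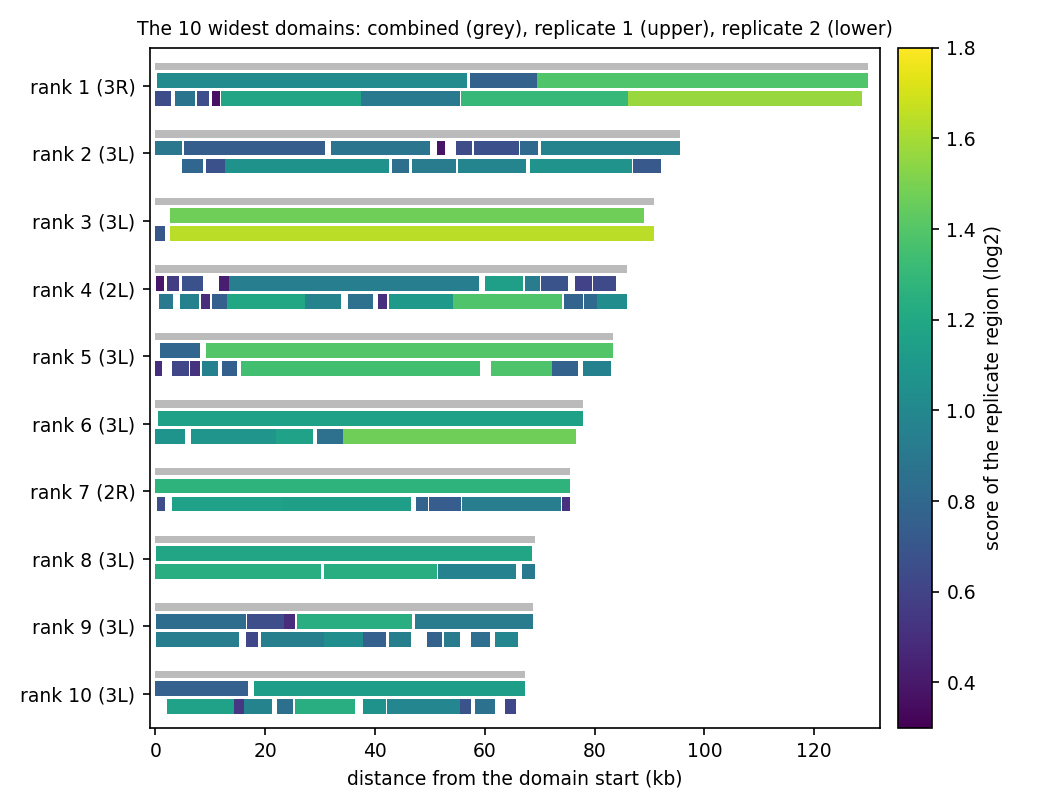
The 10 widest domains from top to bottom, each with the combined region as a grey bar, the replicate 1 regions above and the replicate 2 regions below, along the distance from the domain start in kb (horizontal axis). Colour gives the deposited score (log2) of each replicate region. Rank 3 is nearly 1 unbroken bar in both lists, while rank 4 breaks into 10 and 13 regions.

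Strong division also occurred in narrower domains. The domain 2L:14482566-14538496 (55.9 kb) had 8 regions in replicate 1 that filled 74.1% and 6 in replicate 2 that filled 92.5%. The domain 3L:11325284-11371886 (46.6 kb) had 3 regions in replicate 1 that filled 93.9% and 12 in replicate 2 that filled 77.1%. It belongs to the chain of 4 domains on 3L.

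Of the 5 domains with the highest scores, 3 were a single region in both lists. The highest, 2L:6073130-6093832 with 2.01, and the second, 2R:5428688-5454944 with 1.88, were each 1 region in both lists, filled to between 96.2% and 100%. The fourth, 3R:5901878-5927056 with 1.72, was also 1 region in both. The third, 3R:12030054-12087772 with 1.73, was 57.7 kb wide and was 1 region in replicate 1 (99.8% filled) but 4 in replicate 2 (92.1% filled). Weighted by length over these pieces, its score was 1.96 in replicate 1 and 1.46 in replicate 2. The fifth, 2L:158264-183312 with 1.63, had 2 regions in replicate 1 that were 35 bp apart and 1 in replicate 2. Each list carries its own constant in its scores, so differences in score between lists are not differences in occupancy.

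The developmental loci could be placed only roughly. The gene table at hand follows another release than the lists, so no gene was assigned from it. Instead, 53 developmental genes and 11 other well-known genes were placed from general knowledge of the release 5 map, to about 10 kb. A gene counted as covered when domains held at least 50% of its span as placed and also when it was moved by 10 kb to either side, and as outside when no domain touched it in any of these places. These placements do not come from the deposited files and have not been checked against an annotation of that release. Their order along the arms was the order in the gene table for 59 of 59 neighbouring pairs, which is a weak check, since it says nothing of distances.

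By this rule 2 of the 53 developmental genes (3.77%) were covered, 44 were outside and 7 could not be resolved. The domains fill 7.615% of the 5 arms, but this is not the background of the rule, which also asks for coverage after moves of 10 kb. With no allowance, 4 of the 53 were covered. No background was computed for the rule, and 7 genes were unresolved, so the covered share cannot be placed above or below one. None of the 11 other genes was covered and all 11 were outside. The first covered gene was emc, whose protein is a helix-loop-helix inhibitor of proneural factors, placed in 3L:734540-825308, the third widest domain. The other was fz2, which encodes a Wnt receptor, placed in 3L:19135566-19231088, the second widest. In the gene table emc stands between hng3 and CG13898, and fz2 between Spn75F and CG33647. With an allowance of 20 kb, emc was no longer resolved and fz2 was still covered.

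The 7 unresolved genes were aop, eya, cad, ap, h, Eip75B and bi. Each had a domain within reach of its placement but not at all 3 positions. The nearby domains were 2L:2161558-2183944 for aop (an ETS-domain repressor), 2L:6497596-6526456 for eya (a phosphatase and cofactor of eye determination), 2L:20791584-20814214 for cad (a caudal-type homeodomain factor) and 2R:1597418-1627892 for ap (a LIM-homeodomain selector of the dorsal wing). They were 3L:8675398-8696488 for h (a pair-rule repressor), 3L:17913362-17945290 for Eip75B (an ecdysone-induced nuclear receptor) and X:4215888-4247992 for bi (a T-box factor). The widths of these 7 domains ran from 21.1 to 32.1 kb, and the highest score among them was 1.59 beside Eip75B. Whether these genes lie inside the domains could not be told at this precision.

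The homeotic genes, which set segment identity, were outside at the allowance of 10 kb, as were all 11 of the other well-known genes. Of lab, Dfd, Scr, Antp, Ubx, abd-A and Abd-B, 7 of 7 were outside with no allowance and with 10 and 20 kb. At 10 kb, 44 of the 53 developmental genes, these 7 included, were outside. No background was computed for this count, so it is not read as a trait of the homeotic genes. Regions within 10 kb of their placements were narrow, with the widest of 5263 bp at Scr (3R:2644146-2649408, score 1.01) and a median of 2057 bp over the 7 genes. At abd-A the widest was 2237 bp with a score of 1.42, which is higher than the median score of the domains. The gap factors hb, kni, Kr, gt and tll, the ligands wg, hh and dpp, and the receptors N and ptc were outside at the allowance of 10 kb. The widest region near ptc was 13.3 kb and that near N was 7.323 kb. Over all 53 developmental genes, 38 had an enriched region of any width within 10 kb of the placement, and 12 had one of at least 10 kb. Of the 11 other genes, 10 had a region of any width and 2 had one of at least 10 kb.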

How the data were processed

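LSD1 ChIP-seq regions came from 2 ChIP samples of adult heads, each with 1 list, and from a combined list. Each of the 2 input samples is labelled as the control of the list that bears its replicate number. Reads were aligned with Bowtie 0.12.7, per the submitters' processing notes, and positions follow release 5, per the file headers. For the caller, its threshold, the scaling, the combining of lists and the depth, the sources used here give nothing, and intervals that need the depth are left out. The authors' deposited score was read as log2 enrichment from its values: once a constant specific to the list was taken off, its antilog equalled a quotient of whole numbers (denominators up to 6000, tolerance 1e-12) in 8110 of 8115, 9911 of 9911 and 10988 of 11016 regions. After random shifts of the scores, 0, 2 and 1 regions did so.

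Domains were enriched regions of the combined list of at least 20 kb on 5 arms, and 3 depletion entries were left out. Overlaps, gaps and filled lengths were computed in base pairs with Python 3.11.15 and NumPy 2.4.6, and rank correlations with SciPy 1.17.1. The computation was tested on simulated lists. Domains named in the text were the 10 widest, the 5 highest and 3 lowest in score, the 3 regions on either side of the width limit, the 3 most divided and 3 least filled in each replicate, the 3 closest and 3 most distant neighbouring pairs, and those at listed genes. Chains, bins and the domains beside unresolved genes were named after their values were seen. The members and lists were chosen with earlier results of these data known. Alternatives covered the width limit, scores, joining, replicates and placement of genes.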

Additional observations from a re-analysis of the deposited data

How the results depend on the processing

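Of 38 alternatives, 15 gave a value close to the one reported, 22 moved it further and 1 turned its direction. Close means within the SD of the replicates or the 95% interval where there is one, within 1.5 times for counts and the same value for the share of enriched length. These intervals treat the domains, or the gaps between them, as independent, though all come from the same libraries. They only set the label and do not measure the spread between replicates. Some of the close values were fixed in advance and say nothing of stability. With 2 replicates, the mean without 1 of them always lies within the SD. All 287 domains score above the median of all regions, so the upper 50% of combined scores could not change their number or median gap. Limits of 15 and 30 kb gave 493 and 108 domains, 28.7% and 10.8% of enriched length, and median gaps of 111.4 and 508.4 kb. Joining combined regions less than 1 kb apart gave 468 domains, 36.7% of enriched length and a median gap of 119.0 kb. With the upper 50% of combined scores the number and the median gap were as before, and the length share was 27.3%. The share of domains covered by replicate 1 was 92.7% when 80% of the length was asked for, 90.6% with the upper 50% of its scores and 100% at 30 kb. For replicate 2 it was 80.8% and 89.9% under the first 2 of these. Mean filling was 80.3% with the upper 50% of replicate scores, and between 87.7% and 92.7% when 1 replicate was left out. Regions per domain averaged 1.61 and 1.02 after joining at 1 and 5 kb, and between 2.54 and 3.87 when 1 replicate was left out. The ratio of X to autosomes was 0.860 at 15 kb, 0.345 at 30 kb, 0.233 without replicate 1 and 1.12 without replicate 2, the only reversal. The single-replicate ratios and the fits without X were chosen after seeing the data. The cause of these shifts was not tested, beyond the fewer or more regions that each setting keeps. Covered developmental genes numbered 4 with no allowance and 1 with 20 kb. No paired analysis was possible because no test was run and the input samples have no list of their own. The depth is unknown, so whether breaks inside domains reflect counting error was not tested.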
